A study of Homo sapiens with 6 samples.

Results

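The receptors for glutamate, GABA and glycine were examined after knockdown of the long noncoding RNA CyCoNP in the human neuroblastoma line SK-N-BE. The receptor genes were taken as all protein-coding genes of the AMPA, kainate, NMDA, delta and metabotropic glutamate receptor, GABA-A, GABA-B and glycine receptor families by their symbols in GENCODE, which gave 51 of the 60676 genes in the deposited tables. All 6 libraries came from cells kept for 1.5 days in differentiation medium with 10 μM retinoic acid, 3 of them after transfection of a scrambled siRNA (si-SCR) and 3 after transfection of an siRNA pool against CyCoNP (si-CyCoNP). The comparison addresses the response of the transcriptome to loss of CyCoNP early in differentiation. All libraries derive from a single tumour line, and since the labels do not say whether the replicates were separate cultures, p-values here measure the spread between these libraries, which may be technical.

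Glutamate is the main excitatory and GABA the main inhibitory transmitter of the brain, while glycine inhibits neurons of the spinal cord and brainstem. AMPA, kainate and NMDA receptors are cation channels built of several subunits, and GABA-A and glycine receptors are chloride channels of the same pentameric superfamily. Metabotropic glutamate receptors and the GABA-B receptor act through G proteins instead of forming a channel. Neuroblastoma arises from the sympathetic lineage, whose neurons use noradrenaline as their main transmitter and receive their fast input through acetylcholine receptors.

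The libraries held between 3762009 and 4799407 counted fragments and between 19519 and 20520 genes with a count. LINC02381 (ENSG00000250742), the gene of CyCoNP, had 274, 208 and 315 counts in si-SCR against 20, 30 and 12 in si-CyCoNP, a log2 fold change of -3.78 ± 0.190 (SE, edgeR, adjusted p = 6.84e-14). The neuroblastoma label was checked on 12 noradrenergic marker genes, all of which passed the expression filter, and PHOX2A, a transcription factor that defines this lineage, averaged 734 ± 98.3 FPKM in si-SCR, against 352 ± 28.5 after knockdown (SD, n = 3). Of these markers, 8 were lower and 2 higher in si-CyCoNP (edgeR, adjusted p under 0.05), where 14.2% of all genes tested were lower and 14.2% higher, and their summed level ranged from 2910 to 3330 FPKM in si-SCR and from 2370 to 2550 FPKM in si-CyCoNP. Of 8 glial and Schwann cell markers 2 were tested, of which 1 was higher and CNP was lower (log2 fold change -0.31), SOX10 had no count in any library, and their summed level ranged from 12.1 to 14.8 FPKM in si-SCR and from 17.7 to 24.9 FPKM in si-CyCoNP. Of 8 mesenchymal markers 5 were tested, of which COL1A1 and COL3A1 were higher, VIM was lower, and TWIST1 and LUM did not pass. COL1A1 and COL3A1 passed the expression filter only through si-CyCoNP, where they are high. Their means were 0.45 and 0.148 FPKM in si-SCR against 1.5 and 1.07 FPKM in si-CyCoNP. COL1A2 and PRRX1 had no count, and the summed level lay between 96.2 and 118 FPKM in si-SCR and between 95.6 and 104 FPKM in si-CyCoNP. The part of these shifts in the receptor results was not tested. In such bulk samples, fewer expressing cells and less RNA per cell cannot be told apart.

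Few of the receptor genes reached the expression filter at the counted depth of these libraries. Of the 51, 10 reached a mean FPKM of 1 in either group and were tested, 12 had more than 3 counts in some library but lay below this filter, 10 never exceeded 3 counts in a library, and 19 had no count at all. A count of 0 among 26034682 fragments allows a level of up to 0.115 CPM over all libraries (floor of 3 counts). The AMPA, kainate, NMDA and delta receptor families were each represented by at least 1 tested gene. These were GRIA1 and GRIA4 for AMPA, GRIK2 and GRIK3 for kainate, GRIN3A for NMDA and GRID1 for delta receptors. Among the 19 GABA-A genes 3 were tested, including GABRQ, and GABBR1 was tested among the 2 GABA-B genes. None of the 8 metabotropic glutamate receptor genes and none of the 4 glycine receptor genes were tested, and GLRA1, GLRA2, GLRA3 and GLRB, the last of which encodes the subunit that anchors glycine receptors to gephyrin, had no count in any library.

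On the FPKM scale, which corrects for gene length, most tested receptor genes lay at a few FPKM. GRIK2 averaged 11.6 FPKM over all 6 libraries, a level above that of 73.4% of the genes tested. GRID1 stood at 3.98, GRIA1 at 2.88 and GRIA4 at 2.87 FPKM, whereas GABRQ, GABBR1, GRIN3A and GRIK3 lay between 1.52 and 1.68 FPKM, closer to each other than their spread between libraries. The place of GRIK2 rests on the gene length, which was 7585 bases in the table of the authors and is 26797 bases in GENCODE v44, with which its level would be 3.27 FPKM, below that of GRID1. Fold changes fitted to counts do not depend on this length, whereas those on the log2(FPKM + 1) and log2(FPKM + 0.1) scales do.

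**Figure D1:**
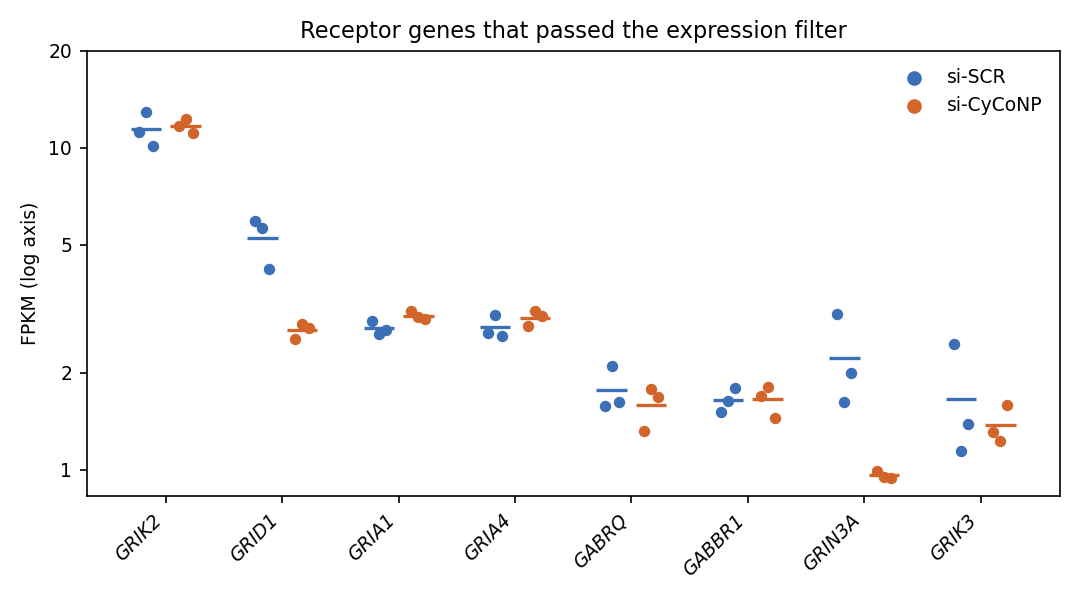
FPKM on a log axis (vertical) of 8 of the 10 tested receptor genes (horizontal), with a point for each library and a line at the mean of each group of 3. The si-CyCoNP libraries lie below all si-SCR libraries for GRID1 and GRIN3A, and just above them for GRIA1.

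Depletion of CyCoNP was followed by lower levels of 4 of the 10 tested receptor genes, GRIN3A and GRID1 among them, and by higher levels of none (edgeR, adjusted p under 0.05). Among all 13966 genes tested 14.2% were lower and 14.2% higher by the same rule, 28.4% in all. GRIN3A and GRID1 also had a log2 fold change below -1 and are termed called, as were 2.98% of all genes tested in this direction, while no receptor gene and 2.28% of all genes were called higher. GRIN3A passed the expression filter only through si-SCR, where it is high, which favours a lower result. It is part of the lower and called genes and of the median given below. With an unadjusted p under 0.05 the counts were 4 lower and 0 higher, and DESeq2 gave 3 lower and 0 higher. The shares of all genes under these rules are not given here, so these counts have no background beside them. The median log2 fold change of the 10 genes was -0.28, beside 0.0053 over all genes tested. In 4 of the 10 genes the si-CyCoNP libraries lay wholly below the si-SCR libraries on the FPKM scale, as in 16.1% of all genes tested.

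**Figure D2:**
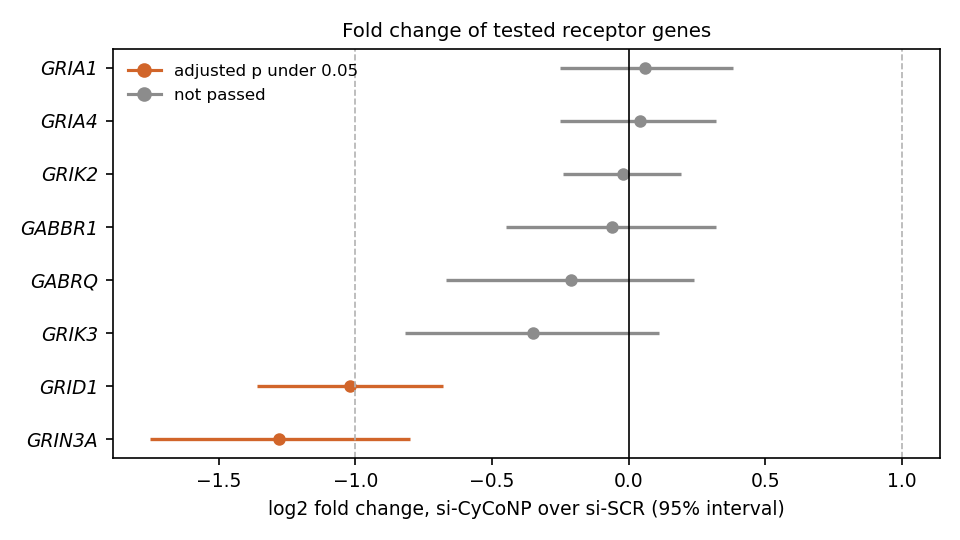
Log2 fold change (horizontal, si-CyCoNP over si-SCR) with its 95% interval for 8 of the 10 tested receptor genes (vertical), in orange where the adjusted p of edgeR was under 0.05, with dashed lines at a log2 fold change of 1 and -1. GRIN3A and GRID1 lie below -1, and the other 6 intervals span 0. GRIN3A passed the expression filter only through si-SCR, where it is high.

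GRIN3A encodes an NMDA receptor subunit that lowers the calcium permeability of the channel and binds glycine. The gene (ENSG00000198785) lies on the minus strand at chr9:101569352-101738647 (GRCh38). It had 107, 50 and 78 counts in si-SCR against 39, 33 and 32 in si-CyCoNP, or 3.04, 1.62 and 1.99 against 0.992, 0.948 and 0.943 FPKM. Each si-CyCoNP library was thus below each si-SCR library, and the si-SCR libraries were spread widely, with replicate 1 the highest. The log2 fold change was -1.28 ± 0.231 (SE, edgeR, adjusted p = 0.000109), so that 41.3% of the library-normalised level remained. Without si-SCR replicate 1 it was -0.97, which is short of a call, though it still passed (edgeR, adjusted p = 0.00198). GRIN3A passed the expression filter only through si-SCR, and it did not pass on the log2(FPKM + 1) scale (-0.69, limma, adjusted p = 0.0542).

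The other NMDA receptor genes were lower, and none reached the expression filter. GRIN1, the subunit that every conventional NMDA receptor contains, had 12, 7 and 10 counts in si-SCR against 10, 10 and 3 in si-CyCoNP, a mean of 0.333 FPKM over all libraries, or 0.180 FPKM with the gene length of GENCODE v44. GRIN2A, GRIN2B and GRIN3B had no count, and GRIN2C had at most 1. GRIN3A took 80.0% ± 3.23 of the summed NMDA receptor FPKM in si-SCR and 58.2% ± 6.21 in si-CyCoNP (SD, n = 3), and this sum ranged from 2.12 to 3.68 and from 1.44 to 1.79 FPKM.

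GRID1 encodes a delta receptor, a relative of the glutamate-gated channels that organises synapses through cerebellins and neurexins. The gene (ENSG00000182771) lies on the minus strand at chr10:85599552-86366795. It reached 159, 132 and 125 counts in si-SCR against 76, 75 and 71 in si-CyCoNP, or 5.94, 5.63 and 4.19 against 2.54, 2.83 and 2.75 FPKM. The groups did not overlap, and si-SCR replicate 3 was the control library nearest to the knockdown. The log2 fold change was -1.02 ± 0.164 (SE, edgeR, adjusted p = 2.22e-05), a 2.03-fold decrease. It passed the adjusted p in each of 15 alternatives, from -1.19 to -0.74, but not when tested against a log2 fold change of 1 (glmTreat). GRID1 also lost the call with library totals alone (-0.95) and without si-SCR replicate 1 (-0.90), si-SCR replicate 2 (-0.96) or si-CyCoNP replicate 1 (-0.98). The log2(FPKM + 1) and log2(FPKM + 0.1) scales gave -0.74 and -0.92. Genes annotated over exons of GRID1 had at most 1 count in a library. The level of CBLN1, a cerebellin that binds delta receptors, had a log2 fold change of 0.48 with an interval from -0.23 to 1.18 (edgeR, adjusted p = 0.340).

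GABRQ, which encodes the theta subunit, had 44, 51 and 50 counts in si-SCR against 41, 49 and 45 in si-CyCoNP, and these overlap. Its log2 fold change was -0.21 with an interval from -0.67 to 0.24 (edgeR, adjusted p = 0.524).

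Most GABA-A receptor genes lie in clusters that combine genes of different subunit types. On chromosome X GABRQ took all 280 counts of its cluster over all libraries, and its neighbours GABRE and GABRA3 had none. In the cluster of chromosome 4 the 125 counts were shared by GABRA4, with 7 to 18 per library, and GABRB1, with 6 to 16, while GABRA2 and GABRG1 had none. Of further subunit genes, GABRG3 had at most 5 counts in a library, GABRB2 at most 3, GABRA5 at most 2, and GABRA6 and GABRD none.

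**Figure D3:**
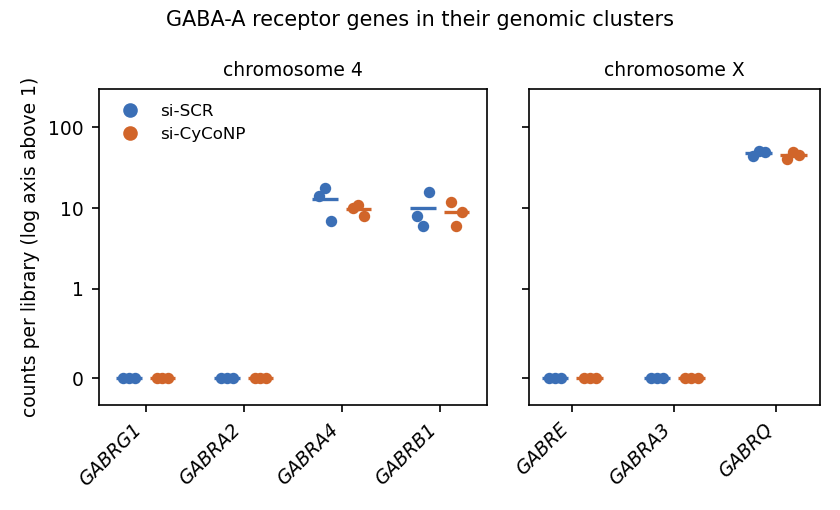
Counts per library (vertical, log axis above 1) of GABA-A receptor genes in the clusters of chromosomes 4 and X, ordered by position within each panel, with a point for each library and a line at the group mean. GABRQ stands apart from its neighbours, which have no count, while GABRA4 and GABRB1 lie at 18 counts or below.

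Of the rho and pi subunit genes, GABRR2 had at most 5 counts, GABRR1 at most 3, GABRP at most 1 and GABRR3 none. The GABA-B receptor requires both of its subunits. GABBR1 had 55, 52 and 73 counts in si-SCR against 69, 65 and 51 in si-CyCoNP, whereas GABBR2 had 1 to 3 counts in every library. The log2 fold change of GABBR1 was -0.06 with an interval from -0.45 to 0.32 (edgeR, adjusted p = 0.837), and it was 0.002 with library totals alone.

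The AMPA and kainate receptor genes showed no change that passed the test. GRIA1, at 2.90, 2.64 and 2.72 FPKM in si-SCR against 3.12, 2.97 and 2.94 in si-CyCoNP, had a log2 fold change of 0.06 with an interval from -0.25 to 0.38 (edgeR, adjusted p = 0.808). Its groups were separate on the FPKM scale, as with 24.2% of all genes tested in this direction, but the difference did not pass the test. GRIA4 had a level close to that of GRIA1, at 2.66, 3.03 and 2.61 against 2.79, 3.10 and 3.01 FPKM, and had a log2 fold change of 0.04 with an interval from -0.25 to 0.32. GRIA3 had no count.

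GRIK2, the main kainate receptor gene, had 365, 368 and 366 counts in si-SCR against 426, 398 and 350 in si-CyCoNP. At -0.02 its log2 fold change was the most precise of the values near 0, with an interval from -0.24 to 0.19 (edgeR, adjusted p = 0.898). GRIK3 depended on a single library, with 111, 45 and 70 counts in si-SCR against 66, 55 and 69 in si-CyCoNP. The value was -0.35 with all libraries (interval from -0.82 to 0.11) and 0.06 without si-SCR replicate 1, the library that was also highest for GRIN3A. Of the other kainate genes, GRIK5 had 9 to 20 counts, GRIK4 at most 3 and GRIK1 none.

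Among the 41 receptor genes that were not tested, 22 had a count, and in 3 of these, GRIA2, GRIN2D and GRM2, the raw counts of the groups did not overlap, each being higher in si-CyCoNP. They were singled out after their values were seen, and over all 26702 genes with a count 11.3% had counts separate in this direction. That share includes the genes above the expression filter, and the share among genes below it alone is not given here. GRIA2, the subunit that makes AMPA receptors impermeable to calcium, had 2, 1 and 5 counts in si-SCR against 26, 13 and 8 in si-CyCoNP. The ratio of the summed counts per library total was 5.72, with an exact 95% counting interval from 2.68 to 14.0. In a fit of all genes without the expression filter its log2 fold change was 2.39 ± 0.569 (SE, edgeR, adjusted p = 0.000381), where 7.69% of all genes were higher by the same rule and 1.61% were called higher. At 0.227 FPKM on average over all libraries, or 0.143 FPKM with the gene length of GENCODE v44, GRIA2 stood far below GRIA1 and GRIA4.

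GRIN2D, an NMDA receptor subunit of early development, had 3, 3 and 3 counts in si-SCR against 11, 9 and 8 in si-CyCoNP, a ratio of 3.03 with a counting interval from 1.39 to 7.29. GRM2, a metabotropic receptor that dampens glutamate release, had 0, 2 and 1 counts in si-SCR against 9, 7 and 3 in si-CyCoNP, a ratio of 6.16 with a counting interval from 1.81 to 32.5. Neither passed in the fit without the filter (edgeR, adjusted p = 0.111 and 0.0613), and with si-SCR at or under 3 counts in every library the fitted fold change of either gene rests on the model.

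**Figure D4:**
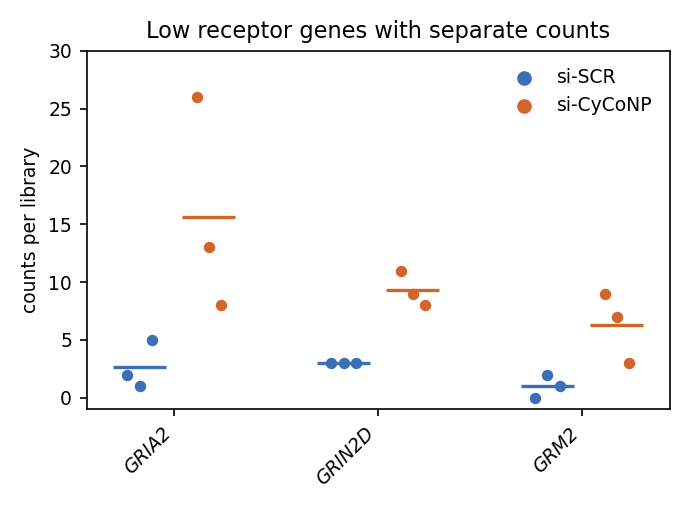
Counts per library (vertical) of GRIA2, GRIN2D and GRM2, with a point for each of 3 libraries per group and a line at the mean. In raw counts the highest si-SCR library of each gene lies below its lowest si-CyCoNP library, at 5 against 8 counts for GRIA2, 3 against 8 for GRIN2D and 2 against 3 for GRM2.

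The most abundant metabotropic glutamate receptor gene was GRM7, a presynaptic receptor, at 19, 10 and 12 counts in si-SCR against 14, 11 and 11 in si-CyCoNP. With the default filter of edgeR, under which it was tested, its log2 fold change was -0.30 ± 0.384 (SE, edgeR, adjusted p = 0.596). GRM8 had 1 to 7 counts, GRM4 at most 2, GRM6 at most 1, and GRM3 and GRM5 none.

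Since the study treats CyCoNP as a sponge of miR-4492, the receptor genes were searched for the seed of this miRNA. Its mature sequence (RefSeq, GRCh38.p14, chr11:118910765-118910781, plus strand) is shown 5′ to 3′ with the seed, bases 2 to 8, in capitals. Beside it stand the stretches of the longest annotated 3′UTR (GENCODE v44) of GRIN3A, the single lower gene with a match, and of GRIA1 and GABRQ, with the 7 bases that pair with the seed (CCAGCCC) in capitals.
hsa-miR-4492: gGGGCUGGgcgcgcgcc
GRIN3A: tcccaaaacctCCAGCCCgggaacactata
GRIA1: gctcgggctccCCAGCCCcatcccaaaccc
GABRQ: ccaaccccttcCCAGCCCctccccagcctg
The 7 bases lie at chr9:101572164-101572170 (minus strand) in GRIN3A, at chr5:153811268-153811274 (plus strand) in GRIA1 and at chrX:152656219-152656225 (plus strand) in GABRQ. GRIK3, which did not pass the test, held 4 matches. Of the 10 tested receptor genes 4 had a match, GRIN3A among the 4 lower genes, compared with 25.0% of 10499 tested protein-coding genes and with 26.3% of those that were lower. GRID1 had none. Of GRIA2, GRIN2D and GRM2, which were not tested, GRM2 held 2 matches and the others none. The 3′UTRs had a median length of 2680 bases in the tested receptor genes and 1580 bases in all tested protein-coding genes. Medians were 3270 and 1950 bases in the lower genes of each set. The part of this length in the shares was not tested. Only the UTR strand was searched, and a match describes letters and is not a measured site.

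The partners of these receptors were followed in a list of 53 auxiliary subunits, trafficking proteins and scaffolds, of which 26 were tested. Of these, 4 were higher, 6 lower and 16 did not pass (edgeR, adjusted p under 0.05), with a median log2 fold change of -0.07. Over all genes tested 14.2% were higher and 14.2% lower, and 2.28% were called higher and 2.98% called lower. On both log2 FPKM scales 3 partner genes were lower, and the share of all genes on these scales is not given here. The called genes were GABARAPL1 and SHANK1, both higher, and CACNG4 and TRAK2, both lower. CACNG4 encodes an auxiliary subunit that carries AMPA receptors to the membrane. It had 222, 232 and 193 counts in si-SCR against 84, 98 and 79 in si-CyCoNP, a log2 fold change of -1.43 ± 0.157 (SE, edgeR, adjusted p = 6.96e-08), beside values of 0.06 for GRIA1 and 0.04 for GRIA4. SHANK1, a postsynaptic scaffold of excitatory synapses, had 153, 136 and 190 counts in si-SCR against 372, 440 and 340 in si-CyCoNP, which are wide apart. This gave a log2 fold change of 1.17 ± 0.118 (SE, edgeR, adjusted p = 1.77e-08), beside -0.03 for SHANK2 and 0.02 for SHANK3, which did not pass.

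Scaffolds of the DLG family bind glutamate receptors. DLG1 and DLG2 were lower, by -0.51 and -0.49 on the log2 scale (edgeR, adjusted p = 0.000195 and 0.000522), and DLG4, the main scaffold of excitatory synapses, had a log2 fold change of 0.03 with an interval from -0.37 to 0.44.

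Among partners of GABA-A receptors, GABARAPL1, a relative of the receptor-associated protein GABARAP that also serves autophagy, rose from 77, 66 and 83 counts to 257, 198 and 220 counts. Its log2 fold change of 1.47 ± 0.135 (SE, edgeR, adjusted p = 3.46e-09) was the largest increase of the list, and the groups were far apart. LHFPL4, an auxiliary GABA-A subunit, was higher by 0.62 on the log2 scale (edgeR, adjusted p = 0.0109). CLPTM1, which holds GABA-A receptors back in the cell, was lower by -0.34 (edgeR, adjusted p = 0.00534). GPHN, the gephyrin gene, had 246, 160 and 288 counts in si-SCR against 315, 238 and 250 in si-CyCoNP, and a log2 fold change of 0.11 with an interval from -0.14 to 0.36. TRAK2, a transport adaptor that binds kinesin and GABA-A receptor beta subunits, was lower at 490, 444 and 384 counts in si-CyCoNP against 943, 887 and 727 in si-SCR. The difference was a log2 fold change of -1.09 ± 0.120 (SE, edgeR, adjusted p = 7.65e-08), which fell short of a call on both log2 FPKM scales (-0.95 and -0.993) and when si-SCR replicate 2 was left out (-0.96).

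**Figure D5:**
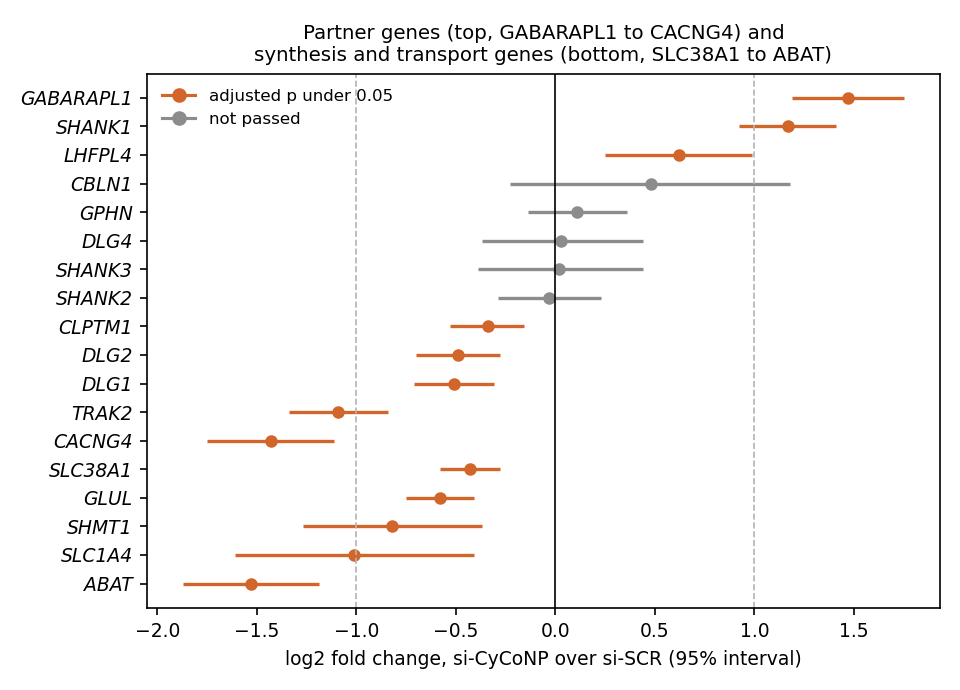
Log2 fold change (horizontal, si-CyCoNP over si-SCR) with its 95% interval for 13 of 26 tested partner genes (upper part) and 5 of 11 tested synthesis and transport genes (lower part), those named in the text, in orange where the adjusted p of edgeR was under 0.05, with dashed lines at 1 and -1. Partner genes passed in both directions, whereas the 5 synthesis and transport genes, all that passed, lie below 0.

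Of 31 enzymes and transporters that make, degrade or move the transmitters 8 had no count and 11 were tested, of which 5 were lower, none higher and 6 did not pass (edgeR, adjusted p under 0.05), with a median log2 fold change of -0.24. Over all genes tested 14.2% were lower and 14.2% higher. DESeq2 gave 5 lower and 0 higher, whereas 8 were lower with a block for the replicate number and 3 on both log2 FPKM scales. The shares of all genes under these alternatives are not given here. GAD1 and GAD2, which make GABA, and SLC17A6, which loads glutamate into vesicles, had no count, while SLC17A7 had at most 4 and SLC32A1, the vesicular transporter of GABA and glycine, at most 6 counts in a library. ABAT, which degrades GABA, fell from 324, 281 and 216 to 124, 88 and 98 counts, with groups that were well separated and a log2 fold change of -1.53 ± 0.165 (SE, edgeR, adjusted p = 5.07e-08).

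SLC1A4, a transporter of neutral amino acids, had 32, 32 and 64 counts in si-SCR against 17, 20 and 30 in si-CyCoNP. Its log2 fold change was -1.01 ± 0.293 (SE, edgeR, adjusted p = 0.0102). SLC1A4 passed the expression filter only through si-SCR, where it is high, at a mean of 1.41 FPKM against 0.744 FPKM in si-CyCoNP. It did not pass without si-SCR replicate 3 (-0.73), without si-CyCoNP replicate 1 (-0.79) or on the log2(FPKM + 1) and log2(FPKM + 0.1) scales (-0.46 and -0.85). It passed but fell short of a call with library totals alone (-0.95), with the replicate block (-0.99) and without si-CyCoNP replicate 2 (-0.95). GLUL, which makes glutamine from glutamate, SLC38A1, which carries glutamine, and SHMT1, which makes glycine from serine, were lower by -0.58, -0.43 and -0.82 on the log2 scale (edgeR, adjusted p = 3.10e-06, 5.31e-05 and 0.00535).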

How the data were processed

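RNA was measured in 3 si-SCR and 3 si-CyCoNP libraries of SK-N-BE cells, grouped by their titles. Per the labels and the methods of the study, stranded total RNA libraries were depleted of ribosomal RNA, reads were trimmed (Trimmomatic 0.39, cutadapt 3.2), cleared of ribosomal reads (Bowtie2 2.4.2) and aligned to GRCh38 with STAR 2.7.7a. The authors deposited raw counts of uniquely mapping fragments per Ensembl gene, which leave out fragments shared by near-identical genes, and FPKM values computed from the same fragments, which are scaled by gene length and library total without correction for library composition. The strand setting of the counting is not given in the sources used here.

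As in the study, genes averaging under 1 FPKM in both groups were removed. The counts were tested, after TMM scaling, by edgeR 4.0.16 (quasi-likelihood, R 4.3.3), with Benjamini-Hochberg adjustment across all 13966 genes tested. Standard errors and 95% intervals of log2 fold changes come from this fit. The alternatives were DESeq2 1.42.0 (the tool of the study), 3 other scalings (library totals, upper quartile, size factors of DESeq2), 2 other expression filters (none, or filterByExpr of edgeR), a block for replicate number, omission of single libraries, limma 3.58.1 on log2(FPKM + 1) and log2(FPKM + 0.1), and glmTreat with a threshold of 1 on the log2 scale. A rescaling of FPKM to GENCODE v44 gene lengths was added after seeing the data.

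The receptor genes and the other lists were chosen with earlier results of these data known. Genes were named by rule: LINC02381, receptor genes with an adjusted p under 0.05, the most abundant member of each family, common subunits (GRIN1, GABBR1, GABBR2, GLRB), members below the filter with at least 10 counts in every library, and of each other list up to 5 called genes in each direction together with SLC17A6, SLC17A7, SLC32A1, GAD1, GAD2, DLG4 and GPHN. The other receptor genes are given to account for the members, some genes are not reported here, and further list members were named after their values were seen. Totals ranged from 3762009 to 4799407 counted fragments per library, and counting intervals and floors cover counting error only.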

Additional observations from a re-analysis of the deposited data

How the results depend on the processing

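At totals of 3762009 to 4799407 fragments per library, 41 of the 51 receptor genes lay below the filter. LINC02381 ranged from -4.16 to -2.90 (log2) over its 15 alternatives and passed in each. Receptor genes lower numbered 3 with DESeq2 and 3 to 4 when 1 library was left out. On the log2(FPKM + 1) scale 2 were lower and 0 were called. With 0 receptor genes higher otherwise, 1 was higher and 1 called higher without an expression filter, which was GRIA2. Called lower were 1 with library totals alone, 1 on the log2(FPKM + 0.1) scale, 0 against a log2 fold change of 1 (glmTreat), and 0 to 2 when 1 library was left out, with 0 without si-SCR replicate 1. Auxiliary and scaffold genes lower numbered 3 on both FPKM scales, and synthesis and transport genes lower also numbered 3. Apart from the fit without an expression filter, the shares of all genes under these alternatives are not given here. The cause of these shifts was not tested.

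Signs turned only for values that had not passed. GRIA4 ranged from -0.02 to 0.11 and GABBR1 from -0.13 to 0.009 over the fits without 1 library, and GABBR1 was 0.002 with library totals alone and 0.001 on both FPKM scales. GRIK2 was 0.05 with library totals alone, 0.04 and 0.05 on the log2(FPKM + 1) and log2(FPKM + 0.1) scales, and from -0.12 to 0.08 without 1 library. Left-out libraries also gave -0.54 to 0.06 for GRIK3, -0.12 to 0.18 for DLG4 and -0.01 to 0.19 for GPHN. TRAK2 lost its call without si-SCR replicate 2 (-0.96) and on the FPKM scales (-0.95 and -0.993).

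With the replicate number as a block, 4 receptor genes were lower and 2 called, 8 synthesis and transport genes were lower instead of 5, and 9 auxiliary and scaffold genes instead of 6. The latter also numbered 9 without si-SCR replicate 3. The shares of all genes in these fits are not given here, so these counts have no background beside them. Deviations of same-numbered libraries correlated with r from 0.0727 to 0.108 and those of other pairs from -0.0666 to -0.0228. Every library thus correlated best with its own number. The labels do not say whether equal numbers mark paired cultures, and the main fit took the numbers as names only. Whether the libraries were paired is not settled here.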
